A study of Mus musculus with 16 samples.

Results

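The genes described here are 33 genes of cholesterol and fatty acid synthesis, chosen by symbol from a list of enzymes and regulators, out of 24411 genes in the count table. They comprise 18 cholesterol enzymes, 6 regulators or sterol carriers, and 9 genes of fatty acid synthesis. All 33 were found in the table. RNA was sequenced from brain macrophages of 8 bone marrow chimeras, and engrafted cells (CD45.1) and host microglia (CD45.2) were taken from each of these brains. The 16 libraries form 4 groups of 4, namely engrafted cells and host microglia of mice 5 to 8, which received no LPS, and of mice 1 to 4, which were killed 12 h after a single intraperitoneal dose of 2.5 mg/kg LPS, the bacterial endotoxin lipopolysaccharide. The labels give C57BL/6J and WT as strain and genotype in every group, and all mice had been lethally irradiated with 950 cGy, including those without LPS. The marrow donors were congenic wild-type mice that carry CD45.1, and the sort took CD11b-positive, Ly6C/G-negative cells, gated as low for CD45.1 (engrafted) or for CD45.2 (host). Recipients were irradiated at 6 weeks of age, and the chimeras of both arms were sorted 9 months after transplantation, although the labels of every library read 3.5 or 9 months. No group is a non-irradiated brain.

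Cholesterol is built from acetyl-CoA through mevalonate, isoprenoid diphosphates, squalene and lanosterol, and the same acetyl-CoA feeds fatty acid synthase, desaturases and elongases. Both arms are governed by the SREBP transcription factors, which the escort protein SCAP carries out of the endoplasmic reticulum when sterols are scarce and which the INSIG proteins hold back when sterols are plentiful. In the brain, cholesterol does not enter from plasma lipoproteins to any great extent, and macrophages are known to alter lipid synthesis when they are activated by endotoxin.

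Promoter sequence is shown for 4 of the genes, 3 because their RNA differed with LPS and the fourth because it holds the sterol spelling searched for. Each run is the 250 bases before the RefSeq start, in build GRCm38.p6 and read 5′ to 3′ on the gene's strand, with the letters of any searched motif in capitals. The windows are chr8:122443423-122443672 on the minus strand for Mvd, chr11:120824548-120824797 on the minus strand for Fasn, chr9:77917115-77917364 on the plus strand for Elovl5 and chr13:119690101-119690350 on the plus strand for Hmgcs1.
Mvd: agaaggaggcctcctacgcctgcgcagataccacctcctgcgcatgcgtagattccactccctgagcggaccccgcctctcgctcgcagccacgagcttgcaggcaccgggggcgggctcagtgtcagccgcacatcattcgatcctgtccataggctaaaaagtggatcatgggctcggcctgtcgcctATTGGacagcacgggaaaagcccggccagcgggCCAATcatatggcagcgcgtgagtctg
Fasn: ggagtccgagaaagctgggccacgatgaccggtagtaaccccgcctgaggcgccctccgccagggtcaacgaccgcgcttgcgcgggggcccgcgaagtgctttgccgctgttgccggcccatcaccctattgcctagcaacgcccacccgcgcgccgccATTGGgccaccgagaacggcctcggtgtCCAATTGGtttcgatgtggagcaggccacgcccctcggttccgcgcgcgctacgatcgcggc
Elovl5: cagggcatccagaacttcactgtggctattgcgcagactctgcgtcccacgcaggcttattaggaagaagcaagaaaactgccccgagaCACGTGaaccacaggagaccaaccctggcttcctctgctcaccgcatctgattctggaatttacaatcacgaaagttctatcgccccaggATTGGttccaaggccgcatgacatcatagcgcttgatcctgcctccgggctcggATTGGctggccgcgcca
Hmgcs1: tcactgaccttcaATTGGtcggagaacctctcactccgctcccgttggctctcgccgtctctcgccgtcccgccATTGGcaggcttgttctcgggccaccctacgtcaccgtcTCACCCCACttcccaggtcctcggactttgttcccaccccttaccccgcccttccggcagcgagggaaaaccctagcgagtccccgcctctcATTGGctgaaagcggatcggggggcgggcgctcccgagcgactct

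In these runs, CCAAT (the letters bound by NF-Y, a partner of the SREBPs) or its reverse complement occurred in Mvd, Fasn, Elovl5 and Hmgcs1 alike, and Fasn held overlapping copies on both strands. Not every gene changed by LPS is printed. Pmvk, which also changed, held CCAAT in its window at chr3:89454291-89454540 and no searched motif in that at chr3:89459321-89459570. CACGTG, the E-box, occurred in Elovl5 only among the 4. The sterol response element was searched as CACCCCAC or TCACNCCAC on both strands, and Hmgcs1 held a match to both spellings at the same place. Promoters were listed for 26 of the 33 genes, with 34 windows. CCAAT was present in 61.8% of these windows, against 33.85% of all 32851 promoter windows of the same length. The share with CACGTG was 17.6% against 6.02%, and the share with either sterol spelling was 5.9% against 3.12%. Only Hmgcs1 and Acat2 held a sterol spelling, and neither could be compared by a model in these libraries except Acat2 in the difference of responses. A match is a description of letters and was not tested as a site.

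The libraries held 395283 to 1203597 counted reads (median 820587.5), and 3 reads, the limit that a count of 0 allows, corresponded to 2.39 to 8.41 CPM (counts scaled to the TMM effective library size), a limit that covers counting error only. Engrafted LPS mouse 4 was the shallowest library. The label of the cells was checked against 12 microglia and macrophage markers, and all 12 had more than 3 reads in a library of every group. Sall1, a microglia transcription factor, was at 289 to 361 CPM in host microglia without LPS and at 3.37 to 25.2 CPM in engrafted cells without LPS. Red blood cell markers were high in mice 4 and 8, where Hbb-b1 reached 874 reads in the engrafted library of mouse 4, and 702 and 305 reads in the engrafted and host libraries of mouse 8, so each count was also taken without these mice. Because bulk RNA was measured, fewer cells of a type and less RNA per cell cannot be told apart. Reads came from the 3′ ends of transcripts, and levels are compared for a gene between groups, not between genes.

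Depth limited what could be said of the lipid synthesis genes. Of the 33 genes, 22 passed edgeR's filter for low counts in at least 1 comparison, 15 passed in all 5, and 11 passed in none. A gene could pass through the group where it was high, so the counts below are not counts over all 33. No more than 3 reads in any library were found for 4 genes, and no more than 10 for 9 genes.

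**Figure D1:**
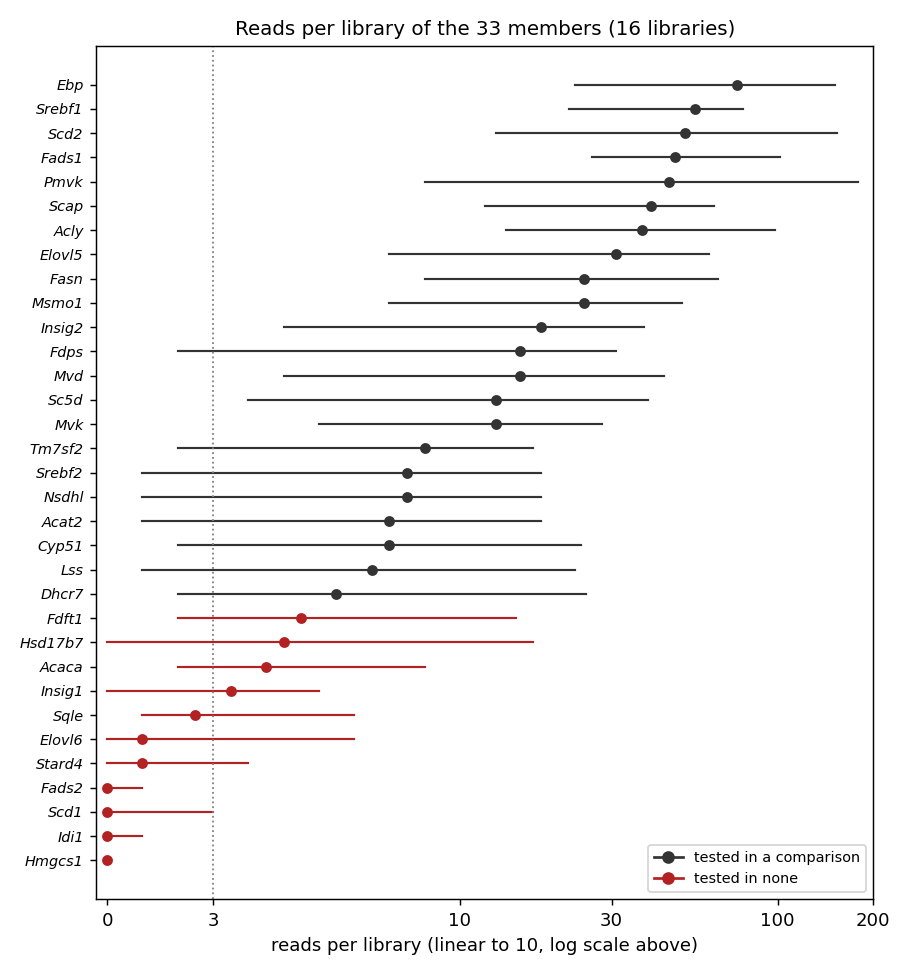
Reads per library of the 33 genes over 16 libraries. Lines run from the lowest to the highest library, points are medians, the dotted line marks 3 reads, and the 11 genes in red, among them Hmgcs1 with 0 reads, passed the filter in none of the 5 comparisons.

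The 11 genes that passed nowhere came from all 3 groups of roles. Hmgcs1, the HMG-CoA synthase, had 0 reads in all 16 libraries, and its model in the table lies on an unplaced contig of chromosome 13. Idi1, which isomerises isopentenyl diphosphate, had 4 reads in total, and Fads2, a fatty acid desaturase, had 1. Scd1, the stearoyl-CoA desaturase of liver and fat, had 6 reads in total and no more than 3 in a library. Squalene synthase Fdft1 had 111 reads over the 16 libraries, squalene epoxidase Sqle 56, the sterol ketoreductase Hsd17b7 89, the SREBP retention factor Insig1 46, acetyl-CoA carboxylase Acaca 73, the elongase Elovl6 27 and the sterol carrier Stard4 27. The deposited model of Stard4 ended 2066 bp short of the GENCODE vM1 end on the same build, a distance that matters in libraries made from 3′ ends. Of the 32 genes with a GENCODE model at the deposited place, 28 had 3′ ends within 20 bp of it, and the GENCODE end lay 416 bp beyond the deposited one for Srebf2 and 152 bp beyond for Acat2.

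Counts of genes that passed are set here beside the share of all tested genes that did. Groups were compared with edgeR's quasi-likelihood test, adjusted after Benjamini and Hochberg over all genes tested, and a gene was called changed at an adjusted p below 0.05. Between engrafted cells and host microglia without LPS, 0 of 17 lipid synthesis genes tested were higher and 2 were lower, against 13.6% and 13.7% of all 8042 genes, and 0 were past 2-fold, against 11% of all. At an unadjusted p below 0.05 in edgeR, 1 was higher and 5 were lower, and DESeq2 called 0 in either direction. After LPS, 4 of 17 were higher and 2 lower, against 9.52% and 7.62% of 7843 genes, and 3 were past 2-fold, against 11.1%. LPS in engrafted cells raised 5 of 15 and lowered 0, against 19.4% and 19.3% of 7609 genes, and 4 were past 2-fold, against 21.5%. At an unadjusted p below 0.05 in edgeR, 1 gene, Insig2, was lower there, and DESeq2 called 0 lower. In host microglia LPS raised 4 of 20 and lowered 3, against 19.2% and 20.5% of 8238 genes, and 5 were past 2-fold, against 18%. The LPS response itself differed between the populations for 3 of 22 genes, 2 with a higher and 1 with a lower value in engrafted cells, against 2.97% and 2.9% of 8847 genes, and all 3 were past 2-fold, against 4.95%. These shares are a description, since the genes that passed are few and are not independent of one another.

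The median log2 fold change over the tested lipid synthesis genes was -0.25 between engrafted cells and host microglia without LPS, beside 0.02 over all genes, and 0.14 after LPS, beside -0.01. It was 0.24 for LPS in engrafted cells and -0.01 for LPS in host microglia, beside -0.01 and 0.01 over all genes. For the difference of responses it was 0.32, beside -0.04. The summed level of the 33 genes was 556.1 to 675.9 CPM in engrafted cells without LPS and 902.7 to 991.4 CPM after it. In host microglia the sums were 708.6 to 768.0 CPM without LPS and 799.9 to 887.7 CPM with it. Without Pmvk and Scd2, 2 genes picked after their values were seen, the engrafted sums were 500.3 to 621.5 CPM and 601.5 to 696.1 CPM, which overlap.

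Of the mevalonate enzymes, Pmvk rose with LPS in both populations. Pmvk, the kinase that phosphorylates phosphomevalonate (chr3:89263040-89272931 in mm9, plus strand, exon counts), was at 27.2, 15.2, 36.0 and 32.4 CPM in engrafted cells of mice 5 to 8 and at 124, 218, 140 and 151 CPM in those of LPS mice 1 to 4. In host microglia its levels were 39.5, 16.5, 29.5 and 30.6 CPM without LPS and 108, 94.7, 95.4 and 75.1 CPM with it. Every LPS library lay above every library without LPS, in both populations. The log2 fold change was 2.47 (SE 0.25, adjusted p = 1.74e-07) in engrafted cells and 1.70 (SE 0.22, adjusted p = 2.49e-06) in host microglia. Both responses were in the same direction, and the difference between them, 0.77 with a 95% interval of 0.08 to 1.45, did not pass (adjusted p = 0.22). After LPS, the engrafted libraries were all above the host libraries, by 0.79 (SE 0.20, adjusted p = 0.01), whereas the difference without LPS was 0.02 with an interval of -0.55 to 0.58. Without engrafted LPS mouse 2, the library at 218 CPM, the adjusted p after LPS was 0.0576.

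Mvd, the decarboxylase that makes isopentenyl diphosphate (chr8:124957496-124967322 in mm9, minus strand), rose in engrafted cells. Its level was 6.04, 8.43, 9.83 and 16.2 CPM in engrafted cells without LPS and 45.9, 53.7, 41.6 and 28.0 CPM after LPS. Host microglia had 10.2, 16.5, 14.4 and 17.4 CPM without LPS and 14.9, 15.9, 18.1 and 25.0 CPM after LPS. The engrafted LPS libraries stood above all other groups, and the remaining groups overlapped each other. The log2 fold change with LPS was 2.12 (SE 0.34, adjusted p = 4.82e-05) in engrafted cells and 0.28 (interval -0.28 to 0.84, adjusted p = 0.465) in host microglia. Engrafted libraries held 5 to 9 reads of Mvd without LPS and 10 to 44 after it. In that fit Mvd was thus admitted by the count filter through the LPS libraries, where it was high. Tested directly, the responses differed by 1.83 (SE 0.44, adjusted p = 0.0107), and engrafted cells exceeded host microglia after LPS by 1.27 (SE 0.27, adjusted p = 0.00265). The Mvd promoter printed above is from another build than these counts.

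**Figure D2:**
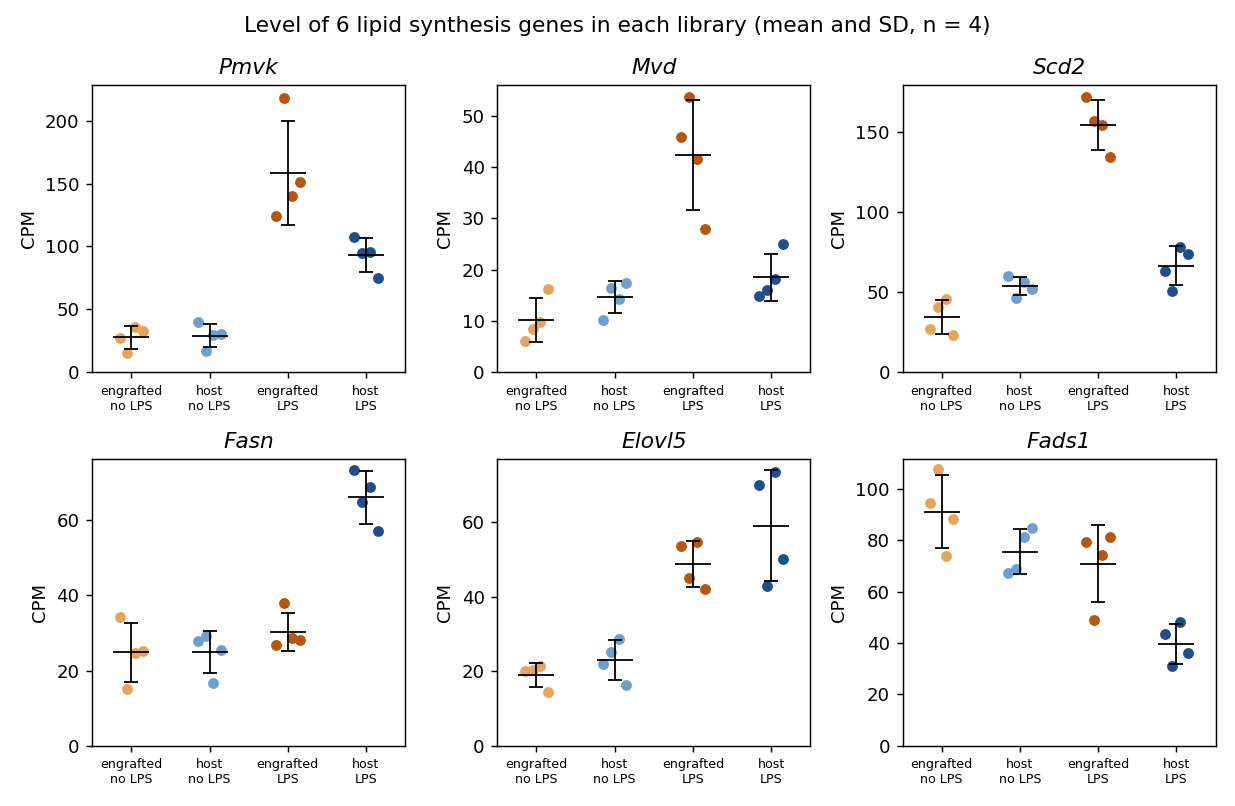
Level in CPM of Pmvk, Mvd, Scd2, Fasn, Elovl5 and Fads1 in each library of the 4 groups, with bars for the mean and SD (n = 4). Scd2 and Mvd stand apart in engrafted cells after LPS, Fasn in host microglia after LPS, and Pmvk and Elovl5 are higher with LPS in both populations.

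Mvk and Fdps, the other mevalonate and isoprenoid enzymes that could be tested, did not pass in any of the 5 comparisons with all of their libraries. Mevalonate kinase Mvk averaged 14.8 and 18.5 CPM in engrafted cells without and with LPS and 25.7 and 16.3 CPM in host microglia. Farnesyl diphosphate synthase Fdps averaged 15.7 and 25.1 CPM in engrafted cells and 22.3 and 16.8 CPM in host microglia, and its difference of responses was 1.06 with an interval of 0.03 to 2.10 (adjusted p = 0.265). Its libraries overlapped in every comparison. Fdps was called higher in engrafted cells after LPS without engrafted LPS mouse 4 and without mice 4 and 8 together (lowest adjusted p = 0.02), and Mvk was called lower with LPS in host microglia without host LPS mouse 1 or host control mouse 7 (lowest adjusted p = 0.047).

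Of the enzymes that form and modify the sterol ring, 1 was called higher and 1 lower with LPS in host microglia. Lanosterol synthase Lss was at 1.46, 6.80, 4.79 and 12.2 CPM in host microglia without LPS and at 10.3, 22.9, 12.1 and 11.1 CPM with it, and rose by 1.11 on the log2 scale (SE 0.43, adjusted p = 0.042). The sterol reductase Tm7sf2 was at 17.6, 10.7, 12.8 and 17.4 CPM without LPS and 5.73, 3.99, 2.42 and 12.5 CPM with it, a log2 fold change of -1.27 (SE 0.41, adjusted p = 0.0177). Host control mouse 8 lay above 3 of the LPS libraries for Lss, and host LPS mouse 4 lay above host control mouse 6 for Tm7sf2. Lss did not pass without host LPS mouse 2 or without any of control mice 5 to 7 (adjusted p up to 0.207), and Tm7sf2 did not pass without host LPS mouse 2, host LPS mouse 3 or host control mouse 8 (up to 0.0678). Neither gene's difference of responses passed. It was -0.37 for Lss (interval -1.66 to 0.92, adjusted p = 0.818) and 0.06 for Tm7sf2 (-1.04 to 1.17, adjusted p = 0.973). In engrafted cells Lss failed the count filter, with means of 6.61 CPM without LPS and 10.9 CPM after it. Tm7sf2 also failed the filter in engrafted cells, and its levels of 13.1 to 18.5 CPM without LPS and 5.61 to 9.11 CPM after LPS did not overlap. By a two-sided exact permutation test of these 4 against 4 libraries p was 0.0286, the smallest the design allows, and the Benjamini-Hochberg value over 56 such tests was 0.445. An adjusted value below 0.05 would need most of these tests to reach that smallest p, so the adjusted value cannot decide for a single gene. Of 7 alternatives in which edgeR or DESeq2 tested Tm7sf2 in engrafted cells, 5 called it lower, among them all 16 libraries in one fit, with a log2 fold change of -1.20 (adjusted p = 0.0236). Where a filter was applied, Tm7sf2 was admitted through libraries without LPS, where it was high. These alternatives reuse the same libraries and are not independent support. An exon of Tm7sf2 is shared on the same strand with 1110014N23Rik, so reads there cannot be told apart.

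Msmo1, the methylsterol monooxygenase, was lower in engrafted cells than in host microglia without LPS. The levels were 26.2, 13.5, 16.4 and 25.2 CPM in engrafted cells and 33.7, 43.7, 39.9 and 30.6 CPM in host microglia. All 4 engrafted libraries lay below all 4 host libraries. The log2 fold change was -0.78 (SE 0.26, adjusted p = 0.0261). The call was lost by DESeq2 and in 4 of 8 runs that left out 1 library, those without mouse 6 or mouse 7 of either population (adjusted p up to 0.0876). After LPS the difference was -0.35 with an interval of -0.84 to 0.14, and the difference of responses was 0.42 with an interval of -0.26 to 1.10.

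Ebp, the sterol isomerase with the most reads of the 33 genes, showed no call. Its group means were 88.3 and 81.0 CPM in engrafted cells without and with LPS and 95.8 and 102 CPM in host microglia. The intervals for LPS were -0.56 to 0.28 in engrafted cells and -0.27 to 0.40 in host microglia, which exclude a 2-fold change in either direction. Sc5d, Nsdhl, Cyp51, Dhcr7 and Acat2, which oxidise, demethylate or reduce the sterol ring or supply acetoacetyl-CoA, also did not pass in the comparisons where they were tested with all libraries. Dhcr7, the last reductase of the pathway, averaged 15.8 CPM in host microglia without LPS and 9.65 CPM with it (adjusted p = 0.0826), and it was called lower there without host LPS mouse 3 or host control mouse 5 (lowest adjusted p = 0.0306). It was also called lower in engrafted cells than in host cells without LPS when host control mouse 5 was left out (adjusted p = 0.0313), and Sc5d was called higher with LPS in host microglia without host LPS mouse 4 (adjusted p = 0.0411). Hsd17b7, which failed the count filter, was at 2.93, 0.971, 3.99 and 6.13 CPM in host microglia without LPS and at 19.5, 9.97, 13.3 and 13.9 CPM after LPS, without overlap (exact permutation p = 0.0286, adjusted 0.445). It was tested in 6 alternatives, namely no filter and the runs without host LPS mouse 2 or any 1 of host control mice 5 to 8, and was higher with LPS in all 6, by 1.62 to 2.32 on the log2 scale (edgeR adjusted p = 0.000342 without a filter and up to 0.00802 in the others). Where a filter was applied, Hsd17b7 was admitted only through the LPS libraries, where it was high. These runs reuse the same libraries and are not independent support.

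**Figure D3:**
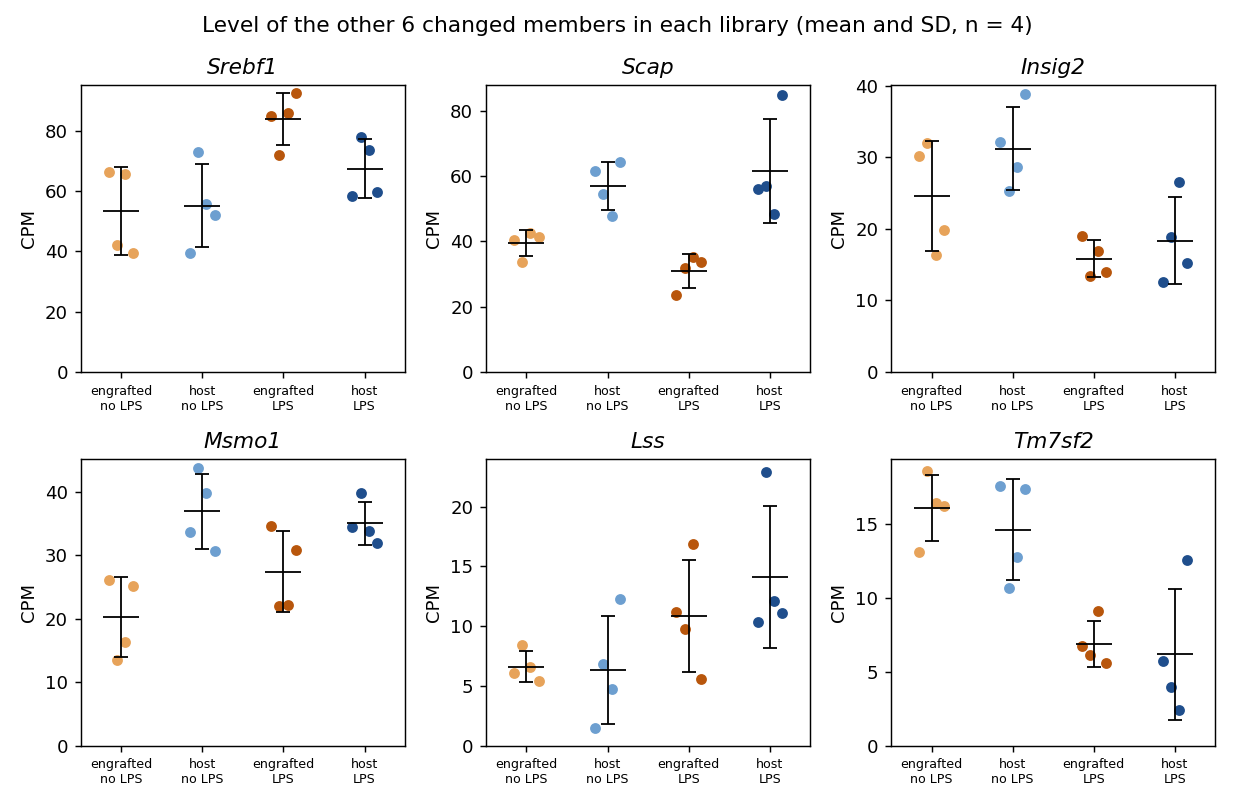
Level in CPM of Srebf1, Scap, Insig2, Msmo1, Lss and Tm7sf2 in each library of the 4 groups, with bars for the mean and SD (n = 4). The Scap libraries of engrafted cells lie below those of host microglia with and without LPS. By edgeR with TMM, only the difference after LPS passed. Lss and Tm7sf2 overlap between the host groups.

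Of the regulators, 1 was called higher with LPS in engrafted cells, 1 was called lower in host microglia, and 1 differed between the populations after LPS. Srebf1, which encodes the SREBP that drives fatty acid genes, was at 66.5, 42.1, 65.5 and 39.6 CPM in engrafted cells without LPS and at 85.0, 72.0, 85.9 and 92.5 CPM after it. All LPS libraries were higher, by 0.57 on the log2 scale (SE 0.22, adjusted p = 0.0424). The call did not hold with library totals (adjusted p = 0.0896), with DESeq2 (0.0571), in 4 of 8 runs without 1 library, namely engrafted LPS mice 1 or 3 or engrafted control mice 6 or 8 (up to 0.12), or without mice 4 and 8 (0.132). In host microglia the difference was 0.27 with an interval of -0.12 to 0.65, and the difference of responses was 0.29 (-0.27 to 0.85). Srebf2, the SREBP of the cholesterol arm, was at 10.1, 3.37, 8.19 and 10.8 CPM in engrafted cells without LPS and at 20.1, 14.6, 14.3 and 14.0 CPM after it. Its 4 LPS libraries were all higher, with an exact permutation p of 0.0286 and an adjusted value of 0.445. As for Tm7sf2, that p is the smallest the design allows, and the adjusted value cannot decide.

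Scap, the escort of the SREBPs, was lower in engrafted cells than in host microglia after LPS. The engrafted libraries of mice 1 to 4 were at 23.5, 31.7, 35.1 and 33.6 CPM and the host libraries at 56.2, 56.8, 48.3 and 84.9 CPM, a log2 fold change of -0.98 (SE 0.25, adjusted p = 0.01). Without LPS the levels were 40.3, 33.7, 42.6 and 41.4 CPM against 61.5, 54.4, 47.9 and 64.3 CPM. Neither set overlapped, but the difference without LPS, -0.46 (SE 0.19), did not pass (adjusted p = 0.0814) except with library totals (0.0401), nor did the difference of responses (adjusted p = 0.38). Without engrafted LPS mouse 1, the adjusted p after LPS was 0.0508. Insig2, which retains SCAP in the endoplasmic reticulum, was at 32.2, 25.2, 28.7 and 38.8 CPM in host microglia without LPS and at 12.6, 18.9, 26.6 and 15.3 CPM with it, and fell by 0.76 on the log2 scale (SE 0.26, adjusted p = 0.025), with 1 LPS library inside the control range. In engrafted cells its levels were 30.2, 32.0, 16.4 and 19.8 CPM and 19.0, 13.4, 16.9 and 14.0 CPM, a log2 fold change of -0.67 that did not pass (adjusted p = 0.102). Tested directly, the Insig2 responses differed by 0.08, with an interval of -0.73 to 0.885 (adjusted p = 0.951). The host call for Insig2 was lost without host LPS mouse 1, host LPS mouse 4 or host control mouse 8 (adjusted p up to 0.0983) and without mice 4 and 8 together (0.145).

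**Figure D4:**
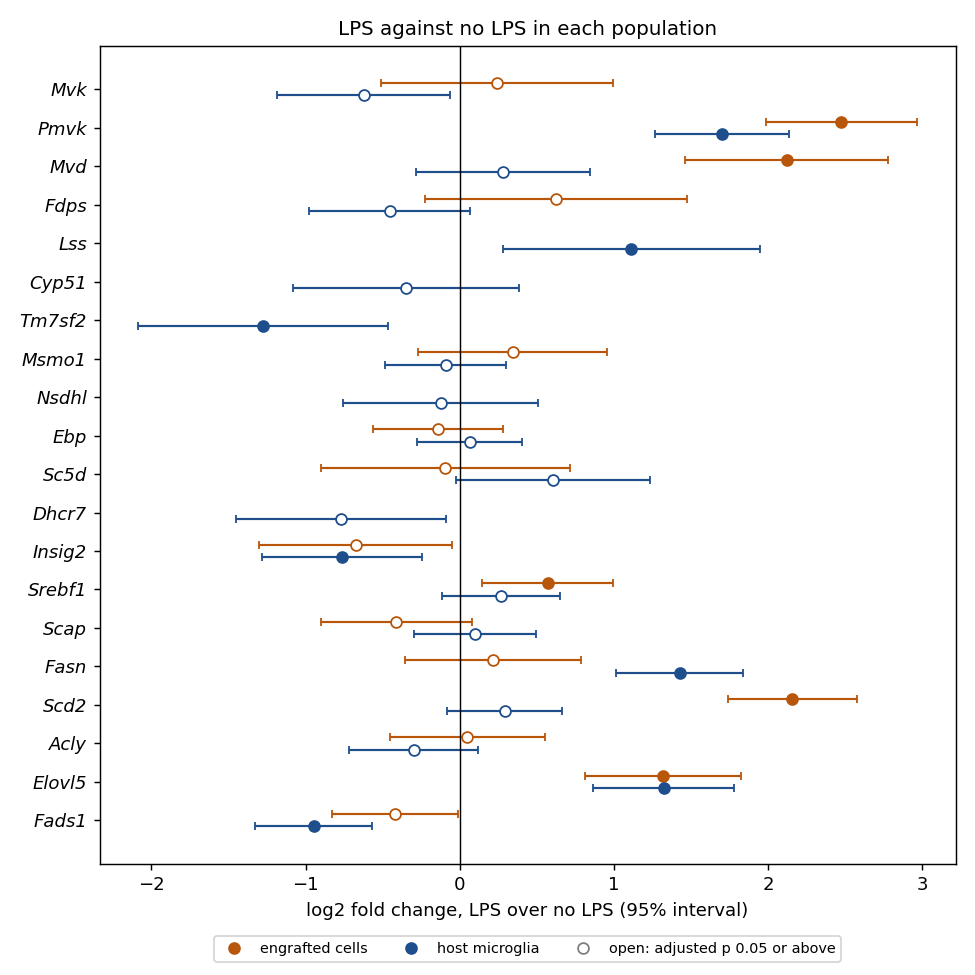
Log2 fold change of LPS over no LPS with its approximate 95% interval for each gene tested, in engrafted cells and in host microglia (filled, adjusted p below 0.05). Pmvk and Elovl5 are filled in both populations, Mvd, Scd2 and Srebf1 in engrafted cells, and Fasn, Lss, Tm7sf2, Insig2 and Fads1 in host microglia.

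Of the fatty acid genes, Scd2 rose with LPS in engrafted cells and Fasn in host microglia. Scd2, the stearoyl-CoA desaturase of the brain, which makes monounsaturated fatty acids (chr19:44368166-44381352 in mm9, plus strand), was at 27.2, 40.5, 45.9 and 23.4 CPM in engrafted cells without LPS and at 172, 157, 155 and 135 CPM after LPS. Host microglia held 60.0, 46.6, 56.6 and 52.1 CPM without LPS and 63.1, 50.9, 78.5 and 73.7 CPM after LPS. Engrafted cells were thus lowest of the 4 groups without LPS and highest after it. With LPS Scd2 rose by 2.16 in engrafted cells (SE 0.21, adjusted p = 1.44e-07), and in host microglia the change was 0.29 (interval -0.08 to 0.66, adjusted p = 0.241). The responses differed by 1.86 (SE 0.28, adjusted p = 8.63e-05). Engrafted cells exceeded host microglia by 1.25 after LPS (SE 0.19, adjusted p = 7.63e-05) and lay below them by -0.61 without LPS (SE 0.22, adjusted p = 0.0387). The last call was lost by DESeq2, without mice 4 and 8 together (adjusted p = 0.136) and without mouse 5 or mouse 8 of either population or host control mouse 7 (up to 0.151). The paralog Scd1 had 6 reads in all, and an exon of Scd2 is shared on the same strand with the GENCODE model AC123853.2.

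Fasn, fatty acid synthase (chr11:120667272-120685861 in mm9, minus strand), rose in host microglia. Its host levels were 27.8, 29.1, 16.8 and 25.5 CPM without LPS and 73.4, 64.8, 68.8 and 57.0 CPM with it. Engrafted cells held 34.2, 15.2, 24.6 and 25.2 CPM without LPS and 26.8, 37.8, 28.6 and 28.0 CPM with it. The host LPS libraries were above all others, and the other 3 groups overlapped. The log2 fold change was 1.43 in host microglia (SE 0.21, adjusted p = 1.18e-05) and 0.21 in engrafted cells (interval -0.35 to 0.78, adjusted p = 0.587). After LPS engrafted cells were lower than host microglia by -1.09 (SE 0.21, adjusted p = 0.00126), and without LPS the difference was 0.13 with an interval of -0.43 to 0.69. The responses differed by -1.22 (SE 0.35, adjusted p = 0.0349). This last call was lost in 9 of 16 runs without 1 library, namely without mouse 1, 3, 7 or 8 of either population or engrafted control mouse 5 (adjusted p up to 0.136), and without mice 4 and 8 together (0.065).

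Elovl5, the elongase of polyunsaturated fatty acids (chr9:77765172-77832326 in mm9, plus strand), rose in both populations. It was at 20.1, 20.2, 21.3 and 14.4 CPM in engrafted cells without LPS and at 53.7, 45.1, 54.6 and 42.0 CPM after LPS. Host microglia were at 22.0, 25.2, 28.7 and 16.3 CPM without LPS and 70.0, 42.9, 73.7 and 50.1 CPM after LPS. Neither population's groups overlapped. The log2 fold change was 1.32 in engrafted cells (SE 0.26, adjusted p = 0.000413) and 1.32 in host microglia (SE 0.23, adjusted p = 9.34e-05). Their difference was -0.01 with an interval of -0.75 to 0.73, so responses that differ by up to about that much could not be seen.

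Fads1, a desaturase of polyunsaturated fatty acids (chr19:10257378-10271362 in mm9, plus strand), fell in host microglia. The host levels were 67.3, 69.0, 81.3 and 84.8 CPM without LPS and 43.6, 30.9, 48.3 and 36.2 CPM after LPS, with no overlap, and the log2 fold change was -0.95 (SE 0.19, adjusted p = 0.000463). In engrafted cells the levels were 94.7, 108, 73.7 and 88.2 CPM without LPS and 79.4, 48.8, 74.2 and 81.3 CPM after LPS, a log2 fold change of -0.42 that did not pass (adjusted p = 0.117). After LPS the engrafted libraries were all higher than the host libraries by 0.84 (SE 0.23, adjusted p = 0.0171). With library totals this p was 0.0523, a scaling that moved the median of all genes in this comparison by -0.15, and it was up to 0.0615 without engrafted LPS mouse 1 or host LPS mouse 2. The difference of responses was 0.51 (adjusted p = 0.309). Acly, the ATP citrate lyase that makes cytosolic acetyl-CoA, averaged 39.6 and 42.4 CPM in engrafted cells and 59.1 and 48.6 CPM in host microglia without and with LPS, and passed in no comparison with all libraries. Without LPS it was called lower in engrafted cells with no filter, without host control mouse 8 and without mice 4 and 8 together (lowest adjusted p = 0.0195).

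**Figure D5:**
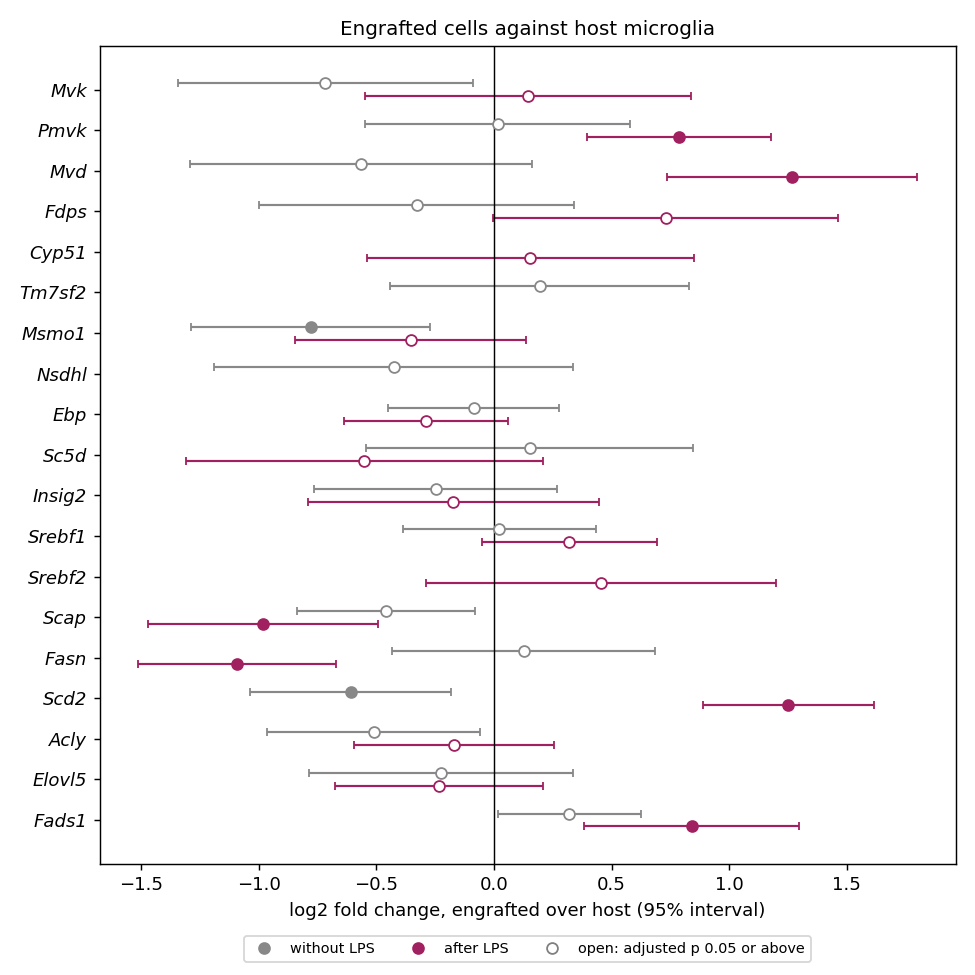
Log2 fold change of engrafted cells over host microglia with its approximate 95% interval for each gene tested, without LPS and after LPS (filled, adjusted p below 0.05). Scd2 is below 0 without LPS and above 0 after LPS, and Pmvk, Mvd and Fads1 are above and Scap and Fasn below 0 after LPS.

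Markers of other cell types moved with LPS and are given as values. In engrafted cells, all 5 monocyte markers had more than 3 reads in a library, and their summed level was 195 to 324 CPM without LPS and 1070 to 2110 CPM after it. Ly6c2 was at 21.6 to 39.3 CPM without LPS and 412 to 871 CPM after it, and Ccr2 was at 84.6 to 227 CPM without LPS and 31.7 to 62.5 CPM after it. In host microglia the monocyte sum was 7.98 to 25.5 CPM and 11.5 to 22.3 CPM. The 8 neutrophil markers summed to 266 to 1240 CPM in engrafted cells without LPS and 24.4 to 470 CPM after LPS, and to no more than 16 CPM in host microglia. Myelin-forming cells make much cholesterol, and the 10 oligodendrocyte markers summed to 160 to 175 CPM in engrafted cells and 156 to 225 CPM in host microglia without LPS, against 86.6 to 89.8 CPM and 87.7 to 136 CPM after LPS, with Mog, Mobp, Cldn11, Opalin and Ermn at no more than 3 reads. The part of these cells in the changes of the lipid synthesis genes was not tested.

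Genes around the pathway were described from 4 lists. Of 19 other synthesis and uptake genes, which include the acyl-CoA synthetases, 10 were tested in engrafted cells with LPS, of which 2 rose and 3 fell, and 9 in host microglia, of which 2 rose and 2 fell. Of all genes, 19.4% rose and 19.3% fell in engrafted cells and 19.2% and 20.5% in host microglia, and the counts of this and the next 3 lists are read against these shares. Lpin1, a phosphatidate phosphatase, fell in both populations, from 58.3 to 19.5 CPM (adjusted p = 0.00031) and from 111 to 34.6 CPM (adjusted p = 5.7e-07). Elovl1, an elongase of very long chains, rose in both, from 188 to 318 CPM (adjusted p = 0.0028) and from 304 to 450 CPM (adjusted p = 0.008). In edgeR 0 of the 11 genes tested in this list had a different response, with 3 at an unadjusted p below 0.05. Without LPS, 3 of 10 were higher and 4 lower in engrafted cells, beside 13.6% and 13.7% of all genes, and the acyl-CoA synthetase Acsl3 averaged 22.4 CPM there and 6.88 CPM in host microglia (adjusted p = 0.00031). Acsl3 was admitted by the filter through the engrafted libraries, where it was high.

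Of the genes of SREBP processing and sterol-regulated degradation tested with LPS in edgeR, 0 of 15 rose and 2 fell in engrafted cells, and 0 of 16 rose and 2 fell in host microglia, and at an unadjusted p below 0.05 there were likewise 0 higher in either population. Nfya, a subunit of NF-Y, fell in both populations, from 36.0 to 14.2 CPM (adjusted p = 0.0029) and from 33.4 to 19.1 CPM (adjusted p = 0.015). After LPS 0 of 16 differed between the populations by edgeR, with 2 at an unadjusted p below 0.05. Without LPS 1 was higher and 3 were lower in engrafted cells, among them Prkab1, a subunit of the AMP-activated kinase, at 75.1 against 162 CPM (adjusted p = 2.2e-06). The median log2 fold change of the list between engrafted cells and host microglia after LPS was -0.34, beside -0.01 over all genes.

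Without LPS, 6 of 16 genes of sterol efflux, storage and LXR were higher and 3 lower in engrafted cells, beside 13.6% and 13.7% of all genes, and Cyp27a1, which makes an oxysterol ligand of LXR, averaged 254 against 71.1 CPM (adjusted p = 2.8e-10). In the list of sterol efflux, storage and LXR genes, 3 of 18 rose and 5 fell with LPS in engrafted cells (19.4% and 19.3% of all genes), and 3 of 16 rose and 4 fell in host microglia (19.2% and 20.5%). Ch25h, which makes 25-hydroxycholesterol, an oxysterol that restrains SREBP processing, averaged 20.3 CPM in host microglia without LPS and 755 CPM after it (adjusted p = 1.6e-06), and 41.8 and 118 CPM in engrafted cells (adjusted p = 2.9e-05). Its responses differed by -3.71 (adjusted p = 0.0048). After LPS, Ch25h was lower in engrafted cells than in host microglia by -2.64 (SE 0.62, adjusted p = 0.0055), but the libraries of the populations overlapped. Abca1, the cholesterol efflux pump, fell in engrafted cells from 302 to 186 CPM and rose in host microglia from 126 to 232 CPM, and the responses differed by -1.61 (adjusted p = 0.000179). Nr1h3, which encodes LXR alpha, averaged 4.00 CPM in engrafted cells without LPS and 55.6 CPM after it (adjusted p = 3.07e-06), and in host microglia 2.63 and 0.997 CPM, where it failed the filter. In engrafted cells Nr1h3 was admitted by the filter through the LPS libraries, where it was high.

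Without LPS, 4 of 20 fatty acid oxidation and lipid droplet genes were higher and 1 lower in engrafted cells (13.6% and 13.7% of all genes). Among fatty acid oxidation and lipid droplet genes, 6 of 22 rose and 5 fell with LPS in engrafted cells (19.4% and 19.3% of all genes), and 2 of 20 rose and 4 fell in host microglia (19.2% and 20.5%). Plin2, the coat protein of lipid droplets, averaged 37.6 CPM in engrafted cells without LPS and 376 CPM after it (adjusted p = 4.93e-10), and 17.5 and 53.5 CPM in host microglia (adjusted p = 1.5e-05), with a difference of responses of 1.68 (adjusted p = 0.00177). Dgat2, which makes triglyceride, averaged 5.14 and 25.7 CPM in engrafted cells (adjusted p = 0.00059). Cd36, the fatty acid translocase, averaged 55.7 CPM in engrafted cells without LPS and 2.17 CPM after it (adjusted p = 3.5e-07). Dgat2 was admitted by the filter through the LPS libraries and Cd36 through those without LPS, where each was high. Mgll, monoglyceride lipase, fell in both populations, from 71.2 to 12.5 CPM and from 209 to 33.1 CPM.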

How the data were processed

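RNA of about 10000 sorted cells per library was captured by oligo(dT) and made into libraries by a derivation of MARS-seq. The authors mapped reads to mm9 (NCBI37) with hisat (version 0.1.5 in the submitters' processing notes, another in the methods), kept unique alignments and counted sense reads on the exons of 1 model per gene with HOMER, and the deposited values are raw counts without normalization. No step that removes PCR duplicates is named, so limits of detection cover counting error only. Counts summed to 395283 to 1203597 per library. Each library was assigned by its title, and no column belonged to another sample.

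Counts were tested in R 4.3.3 with edgeR 4.0.16 (TMM, filterByExpr with minimum count 10 and minimum total 15, quasi-likelihood test, Benjamini-Hochberg over all genes tested, prior count 0.125). Genes were changed at an adjusted p below 0.05, and were also counted past 2-fold. CPM used TMM effective library sizes over 16 libraries, and approximate 95% intervals came from the standard error, itself taken from the fold change and F. Each comparison was fitted on its own groups, and the difference of responses on all 16 libraries. Genes that failed the filter were compared by two-sided exact permutation tests, whose smallest p is 0.029. After adjustment over 56 tests, a value below 0.05 was out of reach unless most tests had that smallest p. Simulated counts with known changes were used to check the scripts. Alternatives were RLE size factors, library totals, DESeq2 1.42.0, no filter, all 16 libraries, a minimum of 10 reads per library, each library left out, and, added after seeing the data, mice 4 and 8 left out. The members and lists were chosen with earlier results of these data known. Every member is named, those changed in a comparison with the value of each library, and of each list at most 4 changed genes per comparison with large fold changes. Single values of some list genes are not reported here.

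Both libraries of a mouse came from the same animal. After removal of group means, Pearson's r across genes between the libraries of mice 1 to 8 was 0.146, 0.0187, 0.21, 0.126, 0.0243, -0.0298, 0.0477 and 0.0835, against means of -0.0629 to 0.00801 with other mice. Genes are not independent replicates. The replicate block (mouse) was therefore run beside the fits that compare populations. LPS and untreated groups are different mice, and the labels do not assign libraries to their experiments, so an experiment and LPS cannot be told apart. Replicates are separate mice. Gene models were compared with GENCODE vM1 of the same build, and promoters are RefSeq sequences of GRCm38.p6.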

Additional observations from a re-analysis of the deposited data

Results flagged for a closer look

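In 75 combinations of gene and group, 7 had a library far from the other 3 of its group by Dixon's test, of which chance gives about 1 in 20. In host microglia after LPS, these were Fdps in mouse 4 at 23.6 CPM, Acly in mouse 1 at 61.9 CPM and Lss in mouse 2 at 22.9 CPM. In engrafted cells after LPS, they were Fasn in mouse 2 at 37.8 CPM and Srebf2 in mouse 1 at 20.1 CPM. In engrafted cells without LPS, Ebp in mouse 7 stood at 129 CPM and Elovl5 in mouse 8 at 14.4 CPM.

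The LPS response differed between the populations by a test of the difference itself for 3 genes. Its log2 value in engrafted cells minus that in host microglia was 1.83 for Mvd, -1.22 for Fasn and 1.86 for Scd2. Every engrafted LPS library exceeded every host LPS library for Mvd and Scd2, and every one lay below for Fasn. The monocyte marker sum, 1070 to 2110 CPM in engrafted cells after LPS and 195 to 324 CPM without it, moved with the rise of Mvd and Scd2 in engrafted cells, and its part in it was not tested. In host microglia, where Fasn rose, the sum was 7.98 to 25.5 CPM without LPS and 11.5 to 22.3 CPM after it.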

How the results depend on the processing

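No change of a called gene turned its direction in any alternative. For LPS in host microglia, 13 of 102 alternative results of the called genes no longer passed, and not all of these are named above. Under DESeq2 the genes lower in engrafted cells without LPS numbered 0 in place of 2, and with at least 10 reads in every library 1. That strict filter also left 1 gene raised by LPS in engrafted cells, 1 past 2-fold there, 3 past 2-fold in host microglia, and 1 higher, 0 lower and 1 past 2-fold in the difference of responses. Fewer genes were tested with it, but Srebf1, with 22 reads or more in every engrafted library, was tested and lost its call. With all 16 libraries in one fit, 1 gene, Tm7sf2, fell with LPS in engrafted cells. Without a filter, 0 genes had a lower response in engrafted cells. Without mice 4 and 8, a setting chosen after seeing the data, 1 gene fell with LPS in engrafted cells and 0 had a lower response, the cause of which was not tested. Leaving out each library in turn gave 0 to 2 genes lower and 0 to 1 past 2-fold without LPS, 1 to 2 lower after LPS, 0 to 1 lowered by LPS in engrafted cells, 1 to 4 lowered in host microglia, and 0 to 1 with a lower response. The replicate block (mouse) changed no call, and with it the Scd2 responses differed by 1.88 (adjusted p = 8.82e-05) and the Fasn responses by -1.17 (adjusted p = 0.048). At this depth Idi1, Scd1 and Fads2 had 3 reads or fewer in every library, the cause of which was not tested. The 0 reads of Hmgcs1, whose model lies on an unplaced contig, set no limit on its expression.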
